A study of Mus musculus with 38 samples.

Results

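The integrated stress response genes examined here were Atf4, Atf5, Ddit3, Chac1, Trib3, Asns, Sesn2 and Ppp1r15a, taken as every row of the count matrix whose Ensembl identifier carries one of these symbols in the mouse annotation. The 8 genes occupied 9 of 35682 rows, because Ddit3 is annotated at 2 identifiers. The second Ddit3 row was at 0 in all 38 libraries, and Ddit3 is given below from the first. Each library held RNA from 2 pooled hearts of male C57BL/6 mice aged 8 to 12 weeks. Sham mice received vehicle (5% DMSO in saline) by mouth each day for 6 weeks and then an open-chest operation without infarction. Control-AMI mice, labelled Control_IR, received the same vehicle and then 30 min of ischemia by ligation of the left anterior descending artery with 2 h of reperfusion. EMPA–Pre-AMI mice, labelled EMPA_IR, received empagliflozin (EMPA), an inhibitor of the sodium-glucose cotransporter SGLT2, at 10 mg/kg/d for 6 weeks before the same ischemia and reperfusion. No group received EMPA without infarction, so EMPA was compared only in infarcted hearts.

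Cardiomyocytes were isolated without sorting (4 libraries from Sham, 5 from Control-AMI and 4 from EMPA–Pre-AMI), endothelial cells (ECs) were sorted as CD45-CD31+ (4, 4 and 5) and fibroblasts as CD45-CD31-CD90+ (4, 4 and 4). Cardiomyocyte libraries totalled 2031716 to 4509284 counts, EC libraries 1352514 to 2195308 and fibroblast libraries 1946056 to 2821373, and mitochondrially encoded genes took 46.6% to 66.01%, 4.52% to 14.6% and 3.47% to 12.5% of them. A count of 0 allows up to 3 counts, which in CPM, the counts scaled to a common depth, is 0.665 to 1.48 for a cardiomyocyte library, 1.37 to 2.22 for an EC library and 1.06 to 1.54 for a fibroblast library. These limits, and the intervals on summed counts below, cover counting error only. Each population carried its own markers, summed here and below in CPM scaled over all libraries: the sum of 8 cardiomyocyte genes was at least 37799 in every cardiomyocyte library and at most 762 elsewhere, that of 8 endothelial genes was 4476 to 9465 in ECs and at most 2556 elsewhere, and that of 8 fibroblast genes was 9388 to 14802 in fibroblasts and at most 4514 elsewhere. Nkx2-5, a cardiac transcription factor gene, was at 0 in the Sham ECs and Sham fibroblasts. The library names carry a sample number and a position, and read by position the numbers form 4 ascending runs, called lists 1 to 4 here. What a list stands for is not given in the sources used here. In cardiomyocytes, list 4 held every Sham and Control-AMI library but only replicate 4 of EMPA–Pre-AMI, whose replicate 2 came from list 2 and replicates 1 and 3 from list 3, so EMPA and list can largely not be told apart in cardiomyocytes. Hearts were digested by perfusion, and the paper states that cells were then taken from the ischemic part below the suture. The 3 populations came from the same kind of digest, so libraries of different populations can share hearts. The labels do not tie libraries to hearts, and comparisons between populations treated the libraries as independent. In these bulk libraries, fewer cells of a type and less RNA per cell cannot be told apart, and p-values measure only the spread between libraries.

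In the integrated stress response, kinases that sense amino acid shortage, misfolded protein, heme lack or viral RNA phosphorylate the translation factor eIF2, which lowers protein synthesis while the mRNA of ATF4 is translated more. ATF4 and its relatives then switch on genes for amino acid supply, redox balance and, when stress lasts, cell death, and the phosphatase subunit encoded by Ppp1r15a closes the loop by reversing eIF2 phosphorylation. Because ATF4 is controlled largely through translation, its mRNA need not follow its protein. In the heart the pathway is known from ischemia with reperfusion and from mitochondrial disease.

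ATF4 binds, with C/EBP proteins, a composite element whose core was searched here as TGATGNAA on both strands of the 300 bases before the start of the canonical GENCODE transcript (GRCm39). The core was present in 3 of the 8 genes, against 885 of 21770 protein-coding promoters (4.07%). The 8 genes were chosen as ATF4 pathway factors and targets, so a higher share among them is not a result of these data. The 3 promoters with the core are shown because Chac1 was the only member called at an FDR of 0.05 in a contrast within a population. The others carry the same core. Each is printed 5′ to 3′ on the strand of its gene, with the match, which lies on the opposite strand, in capitals. The Chac1 window is chr2:119181389-119181688 (plus strand), the Ddit3 window chr10:127126260-127126559 (plus strand) and the Sesn2 window chr4:132237816-132238115 (minus strand).
Chac1: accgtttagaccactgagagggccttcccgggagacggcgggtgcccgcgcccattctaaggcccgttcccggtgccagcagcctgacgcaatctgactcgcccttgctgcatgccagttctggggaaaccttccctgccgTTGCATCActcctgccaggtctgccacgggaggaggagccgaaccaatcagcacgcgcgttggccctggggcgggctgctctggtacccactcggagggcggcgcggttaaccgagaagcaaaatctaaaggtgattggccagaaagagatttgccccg
Ddit3: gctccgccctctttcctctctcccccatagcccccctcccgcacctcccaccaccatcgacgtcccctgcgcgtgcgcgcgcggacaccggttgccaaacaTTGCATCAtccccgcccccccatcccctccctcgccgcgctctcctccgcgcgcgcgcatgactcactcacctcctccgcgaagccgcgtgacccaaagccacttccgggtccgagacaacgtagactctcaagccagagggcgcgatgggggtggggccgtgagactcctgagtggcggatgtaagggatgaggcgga
Sesn2: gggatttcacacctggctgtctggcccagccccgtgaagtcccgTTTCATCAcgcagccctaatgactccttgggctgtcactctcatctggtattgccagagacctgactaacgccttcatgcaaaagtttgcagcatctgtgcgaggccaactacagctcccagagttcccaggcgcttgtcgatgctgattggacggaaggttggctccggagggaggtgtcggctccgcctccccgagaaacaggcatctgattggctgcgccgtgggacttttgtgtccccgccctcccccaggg
Chac1 and Ddit3 held the same 8 letters, at positions -159 to -152 and -199 to -192 from the transcript start. The Sesn2 match, at -256 to -249, had a different letter at the free position. No match was found in the windows of Atf4, Atf5, Trib3, Asns and Ppp1r15a, which says only that these letters are not there.

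The members differed most between cell types in Atf5, which encodes a transcription factor related to ATF4, and in Chac1, which encodes an enzyme that breaks down glutathione. For levels across populations, CPM were scaled over all 38 libraries. Atf5 stood at 197, 115, 111 and 71.1 CPM in Sham fibroblasts, at 62.4, 39.4, 59.4 and 62.02 in Sham cardiomyocytes and at 16.4, 5.79, 6.13 and 6.95 in Sham ECs. On this scale the 3 populations did not overlap. Scaled within each population, Sham Atf5 was 17.5 to 27.5 CPM in cardiomyocytes (mean 24.6) and 9.03 to 26.5 in ECs (mean 14.1). Those ranges overlap, so the separation of cardiomyocytes from ECs and its size depend on the scaling over all libraries. Atf5 was lower in ECs than in fibroblasts by a log2 difference of -3.81 (SE 0.43, FDR 3.85e-09) and higher in cardiomyocytes than in ECs by 2.66 (SE 0.43, FDR 2.72e-06), both by edgeR's quasi-likelihood test with Benjamini-Hochberg adjustment, the test behind every FDR given here. The difference between cardiomyocytes and fibroblasts was smaller, at -1.15 (FDR 0.0114 by the same edgeR test), and its FDR was 0.0735 without fibroblast Sham replicate 1. The order fibroblasts, cardiomyocytes, ECs also held for the group means in both infarcted groups, although the ranges of Control-AMI cardiomyocytes and ECs overlapped (45.9 to 77.0 and 10.4 to 52.4 CPM).

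Asns, which encodes asparagine synthetase, and Trib3, which encodes a pseudokinase induced by ATF4 and CHOP, were higher in Sham ECs than in Sham cardiomyocytes. Asns stood at 4.38, 4.88, 6.13 and 5.21 CPM in Sham ECs, at 1.79, 1.47, 0.886 and 1.38 in Sham fibroblasts, and at 0, 1.09, 0.782 and 3.45 in Sham cardiomyocytes. All EC libraries were above all others. The cardiomyocyte counts behind these Asns values were 0, 2, 1 and 6, so levels there lie near the limit of detection. Asns was higher in ECs than in fibroblasts by 1.86 (SE 0.55, FDR 0.00602, edgeR) and lower in cardiomyocytes than in ECs by a log2 difference of -1.86 (SE 0.62, FDR 0.0105, edgeR). The Asns difference between ECs and fibroblasts was 1.91 with a term for the list, below the threshold (FDR 0.109, edgeR), and 0.81 as a mean over the 3 groups, past it by edgeR. Trib3 was lower in cardiomyocytes than in ECs (-1.40, SE 0.58, FDR 0.0380, edgeR), with overlapping ranges (2.35 to 6.02 and 4.01 to 14.3 CPM), and this call was lost when any of 6 of the 8 libraries compared was left out (highest FDR 0.118, without EC Sham replicate 2). Between ECs and fibroblasts Trib3 differed by 0.27 in Sham (SE 0.50, FDR 0.721, edgeR) and by 0.99 as a mean over the 3 groups, past the threshold by edgeR, and the highest Sham library was a fibroblast one, replicate 4, at 15.9 CPM.

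Ppp1r15a, the gene of GADD34, stood at 90.2, 116, 37.1 and 54.3 CPM in Sham ECs, at 53.8, 25.9, 17.1 and 18.2 in Sham fibroblasts and at 26.4, 43.2, 15.6 and 20.7 in Sham cardiomyocytes. The ECs were highest on average, with 1 library inside the range of the other populations in each case. It was higher in ECs than in fibroblasts by 1.37 (SE 0.47, FDR 0.0194, edgeR), a call lost without any of 4 of the 8 libraries (highest FDR 0.0902, without EC Sham replicate 2). With a term for the list this difference was -0.069 (FDR 0.954, edgeR), the opposite direction. Ppp1r15a was lower in cardiomyocytes than in ECs by a log2 difference of -1.47 (SE 0.49, FDR 0.0119, edgeR), which had FDR 0.0555 without that replicate. Ddit3 is the gene of the transcription factor CHOP. On the scale over all libraries it was higher in Sham cardiomyocytes (44.6 to 77.1 CPM) than in Sham ECs (22.2 to 50.7 CPM). The difference was 1.05 (SE 0.36, FDR 0.0140, edgeR). Scaled within each population, mean Ddit3 was 27.7 CPM in Sham cardiomyocytes and 48.5 in Sham ECs, the opposite order. The direction thus rests on the scaling over all libraries. Sham libraries sat on different lists in different populations, and with a term for the list the cardiomyocyte against EC differences of Ddit3, Asns and Ppp1r15a were 0.61, -1.46 and -0.18 (FDR 0.253, 0.186 and 0.834, edgeR), whereas that of Atf5 stayed past the threshold.

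Chac1 was at 1 count in 1 of 4 Sham fibroblast libraries and at 0 in the other 3. Its observed Sham mean was 2.01 times the limit set by 3 counts over the Sham fibroblast group in cardiomyocytes, and 1.78 times in ECs. In Control-AMI, the same ratio was 14.2 for cardiomyocytes and 1.56 for ECs. In EMPA–Pre-AMI, where all 4 fibroblast libraries were at 0, it was 27.9 and 1.88. These ratios leave out the counting error of the means, so at the few counts of Sham cardiomyocytes and of ECs they are not lower bounds. Chac1 counts ran from 1 to 4 per Sham cardiomyocyte library, from 1 to 8 per Sham EC library and from 0 to 1 per Sham fibroblast library. Its difference passed the threshold between Sham fibroblasts and each other population, and with a term for the list its FDR was 0.117 for cardiomyocytes and 0.533 for ECs (edgeR). Atf4, the central transcription factor gene, and Sesn2, whose product restrains mTORC1, did not pass the threshold in any comparison between Sham populations. Mean Atf4 was 349 ± 168 CPM in fibroblasts, 289 ± 38.9 in cardiomyocytes and 253 ± 168 in ECs (SD, n = 4 each). For Atf4 this rested on EC Sham replicate 1, at 503 CPM against 149 to 196 in the other 3. Without it, Atf4 was lower in ECs than in fibroblasts by a log2 difference of -1.05 (FDR 0.00578, against -0.47 and FDR 0.275 with it, edgeR) and higher in cardiomyocytes than in ECs by 0.77 (FDR 0.0320, against 0.19 with it, edgeR). Scaled within each population, Atf4 was 108 to 151 CPM in Sham cardiomyocytes and 238 to 813 in Sham ECs, the opposite order. The direction between these populations thus rests on the scaling over all libraries. As a mean over the 3 groups the EC against fibroblast difference of Atf4 was -0.60 (FDR 0.00497, edgeR), and with a list term the cardiomyocyte against fibroblast difference was -0.89 (FDR 0.0140, edgeR).

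**Figure D1:**
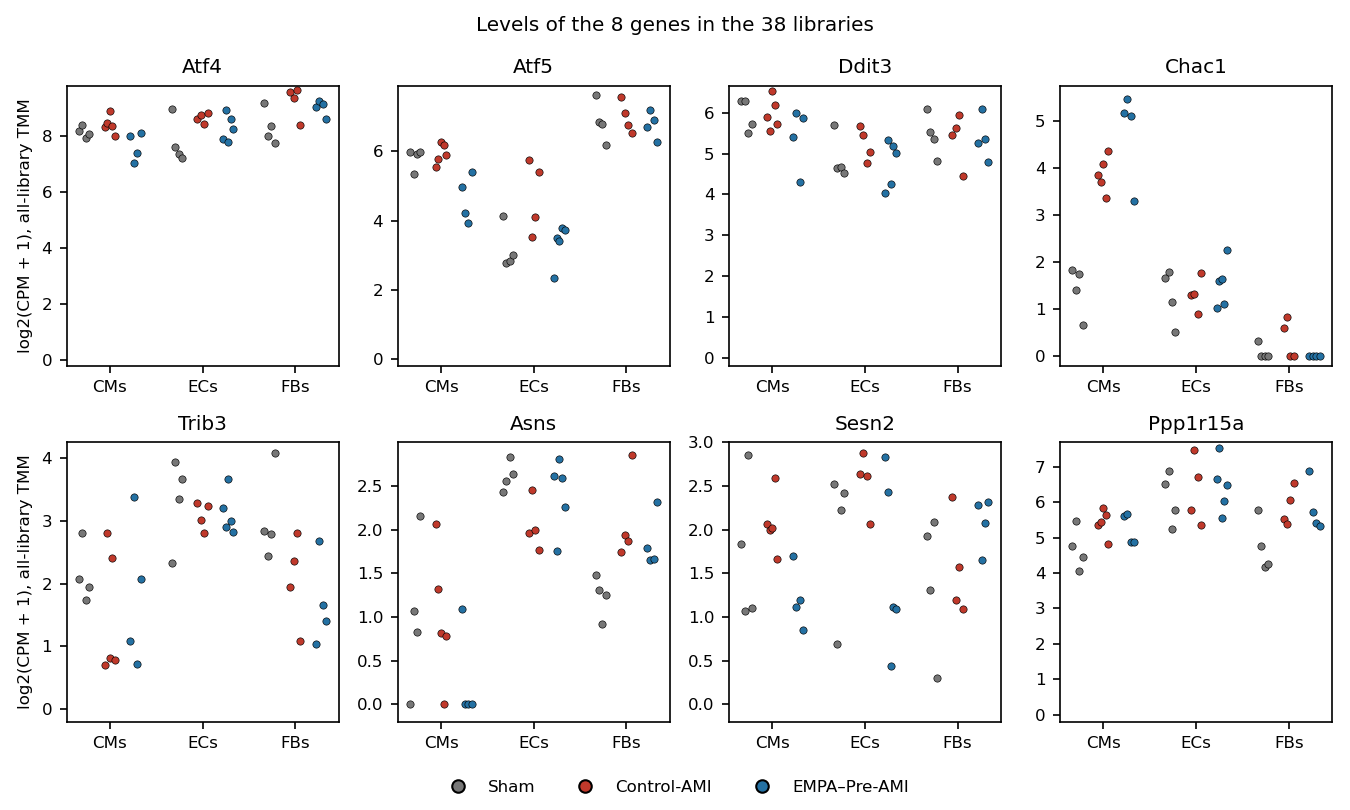
Level of the 8 genes in every library, as log2(CPM + 1) with CPM scaled over all 38 libraries, by population and group (points, libraries). Atf5 separates the Sham populations, and Chac1 is at 8.89 CPM or more in infarcted cardiomyocytes and at 3.803 or less in every other library.

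Of the 8 members, 5 differed between Sham cardiomyocytes and ECs (52.9% of 12085 genes tested), 2 between Sham cardiomyocytes and fibroblasts (47.3%) and 4 between Sham ECs and fibroblasts (37.7%). Differences between Sham populations were common among all genes, and these counts are to be read against those shares. Their median log2 difference was -0.11 for cardiomyocytes against ECs (all genes -0.04), -0.06 for cardiomyocytes against fibroblasts (all genes -0.09) and 0.52 for ECs against fibroblasts (all genes -0.04).

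In cardiomyocytes, 1 of the 5 members that passed the filter on low counts (Chac1, Atf4, Atf5, Ddit3 and Ppp1r15a) was called with infarction, Chac1. Only 0.0655% of the 9167 genes tested were called. Within a population, CPM were scaled over its own libraries. Chac1 stood at 1.13, 0.728, 1.03 and 0.254 CPM in Sham (4, 3, 3 and 1 counts), at 5.76, 5.41, 6.90, 4.33 and 8.72 in Control-AMI (21, 16, 21, 13 and 27 counts), while EMPA–Pre-AMI libraries held 15.96, 22.4, 14.7 and 3.87 CPM (31, 37, 52 and 11 counts). Every infarcted library was above every Sham library, and EMPA–Pre-AMI replicate 4, the only one of its group on list 4, was the lowest of the infarcted libraries. The log2 difference between Control-AMI and Sham was 2.96 (SE 0.53, FDR 0.0301, edgeR). In summed counts per total, 98 in Control-AMI against 11 in Sham gave a ratio of 8.32 (95% interval 4.45 to 17.2). Groups that do not overlap were found for 1 of the 5 members, Chac1, and for 2.47% of genes. Chac1 passed the filter, a minimum of 10 counts, only through the infarcted groups, so neither this count nor the count of calls is support for a change of the members.

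The size of the Chac1 difference moved little when a library was left out (2.65 to 3.18), but its FDR ran from 0.00208 to 0.244, and the call was lost without any one of the 4 Sham libraries or of Control-AMI replicates 1, 2, 3 and 5. All libraries of this contrast were on list 4. Chac1 counts were 1 to 10 in the 13 EC libraries and 0 to 3 in the 12 fibroblast libraries, below the Control-AMI and EMPA–Pre-AMI cardiomyocytes. Summed leukocyte markers were 44.6 to 103 CPM in Sham cardiomyocytes, 54.9 to 205 in Control-AMI and 60.6 to 413 in EMPA–Pre-AMI, with none of the 8 markers at 0 in every library of a group, and their part in the Chac1 result was not tested.

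The factors upstream of Chac1 did not pass the threshold with infarction. Atf4 stood at 129, 151, 108 and 121 CPM in Sham cardiomyocytes and at 138, 159, 207, 153 and 117 in Control-AMI, ranges that overlapped, with a log2 difference of 0.28 (SE 0.21, FDR 1.00, edgeR). Atf5 gave 0.15 (SE 0.26) and Ddit3 0.04 (SE 0.30). Ppp1r15a stood at 11.5, 19.2, 6.84 and 9.15 CPM in Sham and at 17.0, 19.3, 24.3, 22.7 and 12.3 in Control-AMI, with 3 of 4 Sham libraries below every Control-AMI library. Its log2 difference was 0.69 (SE 0.30, unadjusted p = 0.0323, FDR 1.00, edgeR). The median over the 5 members was 0.28, against 0.01 over all genes tested, and all 5 estimates were above 0.

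**Figure D2:**
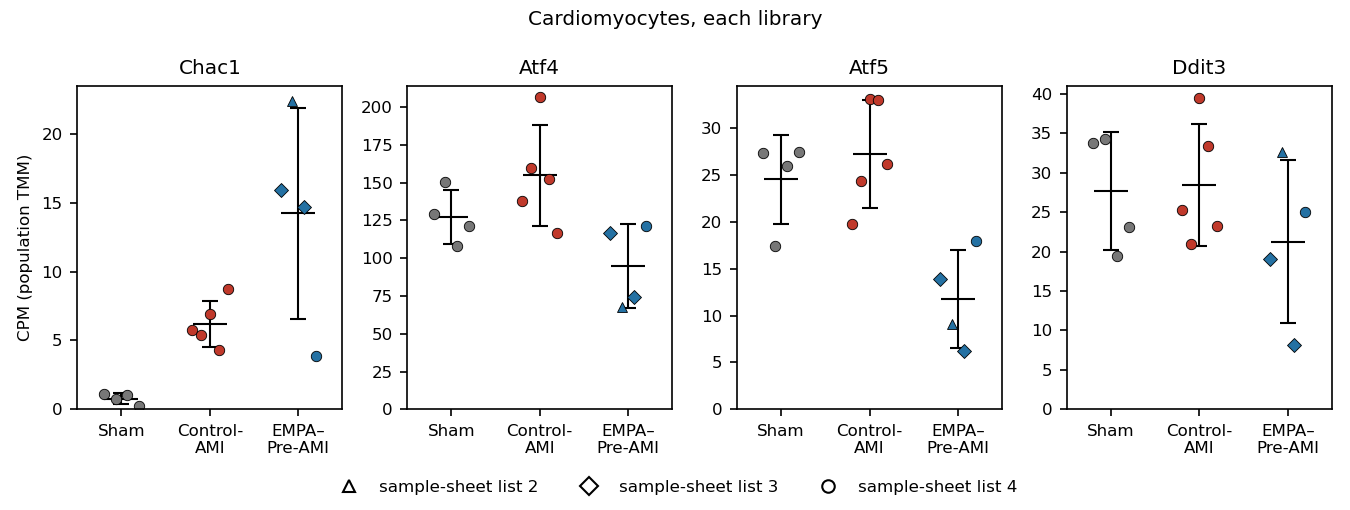
CPM of Chac1, Atf4, Atf5 and Ddit3 in each cardiomyocyte library (points, shape by sample-sheet list) with group mean ± SD (bars). Chac1 is higher in both infarcted groups than in Sham, and Atf5 is lower in EMPA–Pre-AMI, where 3 of 4 libraries come from other lists.

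EMPA against Control-AMI in cardiomyocytes called 0 of 5 members at an FDR of 0.05 (0.0218% of genes) and 3 of 5, namely Atf5, Atf4 and Chac1, at the looser FDR of 0.1 that the study used for this contrast (10.7% of genes). By an unadjusted edgeR p under 0.05 the count was also 3, when 2295 of the 9167 genes tested met that limit. DESeq2 called 2 members at 0.05. Here and below, the share of all genes that DESeq2 called is not given, so its counts cannot be set against those of edgeR. Atf5 stood at 19.8, 24.4, 33.2, 32.998 and 26.2 CPM in Control-AMI and at 13.9, 9.07, 6.22 and 17.9 in EMPA–Pre-AMI. All 4 EMPA libraries were below all 5 controls, the only member whose groups did not overlap (5.97% of genes). The log2 difference was -1.21 (SE 0.28, FDR 0.0571, edgeR). Atf4 stood at 116, 67.8, 74.4 and 121 CPM in EMPA–Pre-AMI, with replicates 2 and 3 well below every Control-AMI library, replicate 1 just below the lowest of them and replicate 4 inside their range, and differed by -0.70 (SE 0.22, FDR 0.0732, edgeR).

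Chac1 was higher in 3 of 4 EMPA–Pre-AMI libraries than in any Control-AMI library, and replicate 4 was lower than all of them. The log2 difference was 1.16 (SE 0.38, FDR 0.0868, edgeR), and 131 against 98 summed counts gave a ratio of 1.76 (95% interval 1.34 to 2.31). Thus Chac1 was higher while Atf4 and Atf5 were lower. Ddit3, at 19.05, 32.7, 8.21 and 25.0 CPM in EMPA–Pre-AMI, gave -0.45 (SE 0.31, FDR 0.377, edgeR) and Ppp1r15a -0.12 (SE 0.30, FDR 0.833, edgeR). The median over members was -0.45 (all genes -0.01), with 4 of 5 estimates below 0.

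These EMPA values depended on the lists. With a term for the list, Chac1 was -0.68, Atf5 -0.60 and Atf4 -0.35 (FDR 0.999 for each, edgeR), and in list 4 alone, which leaves 1 EMPA library assumed to vary like the others, -0.67, -0.58 and -0.34 (FDR 0.989 for each, edgeR). Chac1 thus turned direction. Fibroblast markers also differed between the groups: their summed CPM was 1975 to 2837 in Sham cardiomyocytes, 1587 to 3569 in Control-AMI, and 734, 1922, 395 and 2150 in EMPA–Pre-AMI, lowest in replicates 1 and 3 on list 3. Because Atf5 is highest in fibroblasts, its level was set beside these markers over the 13 cardiomyocyte libraries, which share groups and lists. On log2(CPM + 1) values, Pearson's r was 0.74 and Spearman's rho 0.60, and r was 0.29 without the 2 libraries farthest from the median of the markers. The part of these cells in the Atf5 difference was not tested.

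Against Sham, EMPA–Pre-AMI cardiomyocytes had 1 of 5 members called, Chac1, when 0.338% of genes were. Here too Chac1 passed the filter only through the infarcted groups. Neither this count nor the lack of overlap is therefore support for a change of the members. Chac1 differed by a log2 value of 4.12 (SE 0.53, FDR 0.000362, edgeR), with no overlap (7.88% of genes), and by 14.7-fold in summed counts (95% interval 7.92 to 30.1). With a list term this was 2.29 and in list 4 alone 2.30 (FDR 1.00 for both, edgeR). Atf5 differed by -1.06 (SE 0.29, FDR 0.109, edgeR) and passed the threshold without EMPA–Pre-AMI replicate 4 (-1.38, FDR 0.00904, edgeR). That omission leaves no EMPA library on list 4, which holds every Sham library, so EMPA and list then cannot be told apart. The members' median was -0.42 (all genes -0.0027). The EMPA against Control-AMI and Control-AMI against Sham contrasts share the Control-AMI libraries, so for Chac1 1.16 and 2.96, for Atf5 -1.21 and 0.15, and for Atf4 -0.70 and 0.28 are not independent pairs.

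The members below the filter in cardiomyocytes were at a few counts. Trib3 had 3 to 11 counts per Sham library, 1 to 8 per Control-AMI library and 1 to 8 with EMPA. Asns had 0 to 6, 0 to 5 and 0 to 1 counts, and Sesn2 2 to 8, 3 to 7 and 1 to 2 counts. The summed-count ratio of Control-AMI to Sham was 0.662 (95% interval 0.334 to 1.28) for Trib3, 0.934 (0.329 to 2.66) for Asns and 1.34 (0.679 to 2.72) for Sesn2. Each of these intervals includes 1, so no difference between Control-AMI and Sham was detectable at this depth. For EMPA–Pre-AMI, Asns had 1 summed count against 9 in Sham (ratio 0.137, 95% interval 0.00312 to 0.986) and Sesn2 6 against 23 in Control-AMI (0.343, 0.114 to 0.868). These intervals exclude 1 for counting error only, were not tested over replicates, and carry the lists that cannot be told apart from EMPA.

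In ECs, 7 members passed the filter and 0 were called with infarction by edgeR (6.56% of 10438 genes). At an unadjusted edgeR p under 0.05 there was 1 member among 2063 genes, and DESeq2 called 1 member, in both cases Atf5. Atf5 stood at 26.5, 9.03, 9.73 and 11.1 CPM in Sham, at 81.6, 16.3, 25.4 and 64.1 in Control-AMI, and at 6.46, 16.2, 15.3, 20.4 and 19.2 in EMPA–Pre-AMI. Control-AMI replicates 1 and 4, both on list 4, were above every other EC library, and Sham replicate 1, on list 3, was the highest of its group. The log2 difference was 1.75 (SE 0.51, FDR 0.0575, edgeR) for Control-AMI against Sham and -1.61 (SE 0.47, FDR 0.113, edgeR) for EMPA–Pre-AMI against Control-AMI, contrasts that share the Control-AMI libraries. Without Sham replicate 1 the first was 2.24 (FDR 0.0190, edgeR), omitting replicate 2 or 3 of Control-AMI, or replicate 1 of EMPA–Pre-AMI, also gave a call, and with a list term it was 0.91 (FDR 0.226, edgeR). Without Control-AMI replicate 2 the EMPA difference was -1.92 (FDR 0.00919, edgeR), without replicate 1 -1.21 (FDR 0.387, edgeR), with a list term -0.85 (FDR 0.754, edgeR) and within list 2 -0.74 (FDR 0.998, edgeR).

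Fibroblast markers differed between the EC groups. Their summed CPM was 467, 977, 373 and 617 in Sham ECs, 4514, 1288, 1334 and 2512 in Control-AMI, and 415, 667, 349, 323 and 435 in EMPA–Pre-AMI, so all 4 Control-AMI libraries were above the other 9, with none of the 8 markers at 0. The highest values were in replicates 1 and 4, the libraries with the most Atf5. Over the 13 EC libraries, which share lists and groups, Pearson's r between Atf5 and these markers, also on log2(CPM + 1) values, was 0.73 and Spearman's rho 0.48, and r was 0.15 without the 2 libraries farthest from the median. Atf5 averaged 182 ± 77.4 CPM in Sham fibroblasts on that population's own scale (SD, n = 4). Endothelial markers were 8580 to 9465 CPM in Sham ECs, 4476 to 6099 in Control-AMI and 6120 to 8952 with EMPA, with every Control-AMI library below the other 9. The sum of 4 red cell genes was 9.86 to 111 CPM in Sham, 151 to 634 in Control-AMI and 195 to 811 with EMPA, and leukocyte markers stood at 427 CPM in Control-AMI replicate 3 and at most 86.3 in the other ECs. The part of these cells in the EC results was not tested.

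**Figure D3:**
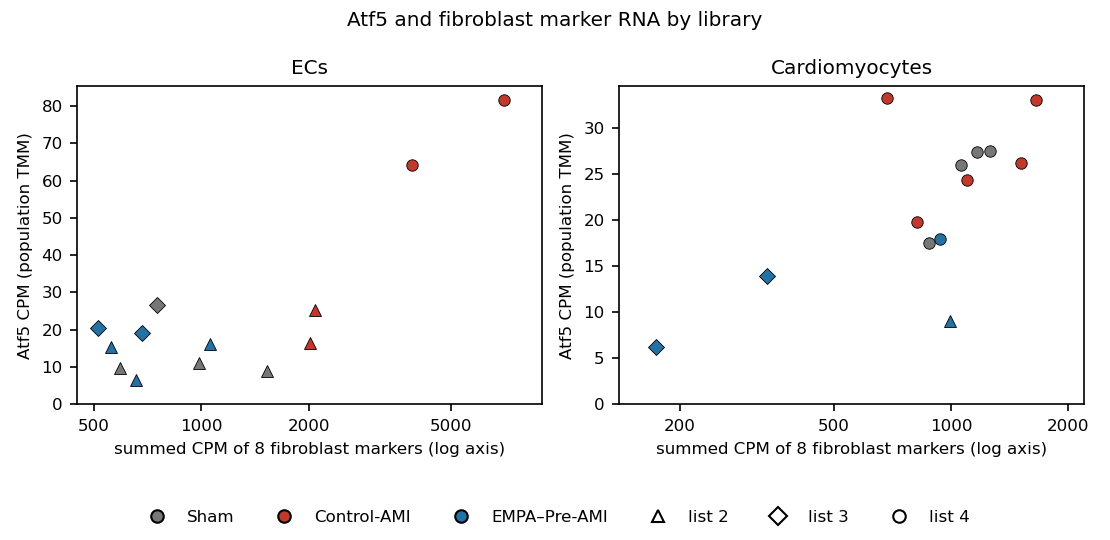
Atf5 (CPM, linear axis) against the summed CPM of 8 fibroblast markers (log axis), both scaled within the population, in each EC library (left) and cardiomyocyte library (right), coloured by group. In ECs the 2 libraries with the highest marker sums also hold the most Atf5, and in cardiomyocytes the 2 with the lowest sums are EMPA–Pre-AMI libraries with low Atf5.

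Atf4 stood at 813, 306, 258 and 238 CPM in Sham ECs, at 609.5, 675, 535 and 700.4 in Control-AMI, and at 382, 792, 352, 623 and 485 in EMPA–Pre-AMI. Sham replicates 2 to 4 were below every infarcted library, and Sham replicate 1 was above all of them. The infarction difference was 0.64 (SE 0.39, FDR 0.410, edgeR) with that library and 1.23 (FDR 0.00548, edgeR) without it. Its Ddit3 level was likewise apart, at 82.0 CPM against 37.6, 38.9 and 35.4 in the other Sham ECs, and Control-AMI Ddit3 was 78.5, 67.1, 40.8 and 49.8. Ddit3 differed by 0.29 (SE 0.33, FDR 0.680, edgeR).

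The lower-count EC members did not pass the threshold. Asns stood at 7.08, 7.61, 9.73 and 8.33 CPM in Sham, at 4.54, 7.004, 4.68 and 3.74 in Control-AMI, and at 8.07, 3.78, 9.61, 8.03 and 5.98 in EMPA–Pre-AMI. All 4 Control-AMI libraries were below all 4 Sham libraries, the only EC member without overlap (11.3% of genes). The difference was -0.71 (SE 0.43, FDR 0.386, edgeR), and 35 against 60 summed counts gave 0.580 (95% interval 0.371 to 0.895). Trib3 gave -0.40 (SE 0.36), Sesn2 0.56 (SE 0.63) and Ppp1r15a 0.31 (SE 0.56), and Ppp1r15a spread from 62.3 to 276 CPM within Control-AMI alone. Chac1, not tested in ECs, had 19 summed counts in Sham, 17 in Control-AMI and 28 with EMPA, and the Control-AMI to Sham ratio was 0.890 (95% interval 0.435 to 1.81). The members' median was 0.31 (all genes -0.02).

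With EMPA, 0 of 7 EC members were called against Control-AMI by edgeR (2.63% of genes). Groups that do not overlap were found for 0 members and 4.21% of genes. At an unadjusted edgeR p under 0.05 there was 1 member among 1274 genes, and DESeq2 called 1 member, again Atf5. Against Sham, 0 were called (2.71% of genes, and 6.56% without overlap against 0 members). At an unadjusted edgeR p under 0.05 there were 0 members and 1475 genes, and DESeq2 called 0 members. In that contrast Atf5 was 0.14 (SE 0.51, FDR 0.930, edgeR) and Atf4 0.38 (SE 0.37, FDR 0.701, edgeR). The medians were -0.26 (all genes 0.02) and -0.13 (all genes -0.01).

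**Figure D4:**
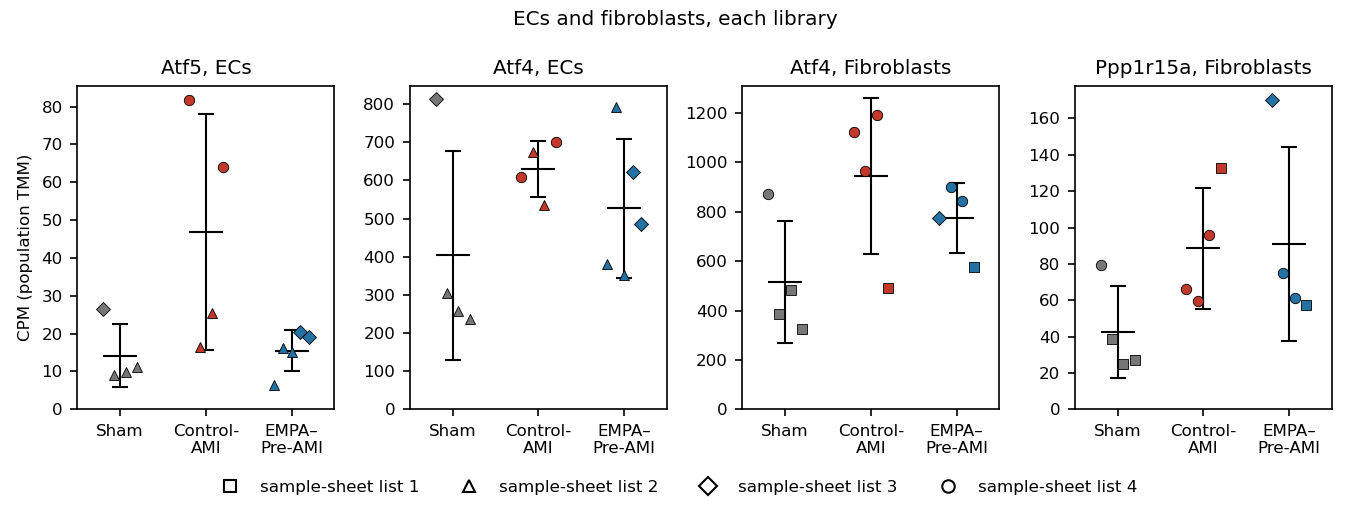
CPM of Atf5 and Atf4 in each EC library and of Atf4 and Ppp1r15a in each fibroblast library (points, shape by sample-sheet list) with group mean ± SD (bars). Sham replicate 1 lies above the other Sham libraries in all 4 panels, and fibroblast Atf4 is higher in list 4 than in list 1.

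In fibroblasts, 6 members passed the filter and 0 were called with infarction by edgeR (4.16% of 10691 genes). At an unadjusted edgeR p under 0.05 there were 3 members and 2057 genes, and DESeq2 called 0 members. Atf4 stood at 871, 386, 483 and 324 CPM in Sham, at 1124, 967, 1193 and 491 in Control-AMI, and at 774, 901, 844 and 575 in EMPA–Pre-AMI. Control-AMI replicates 1 to 3 were above every Sham library, and replicate 4 was inside the Sham range. The log2 difference was 0.87 (SE 0.31, FDR 0.132, edgeR). It was called without Sham replicate 1 (1.25, FDR 0.0135, edgeR) or without Control-AMI replicate 4 (1.09, FDR 0.0335, edgeR). Over all groups the 5 libraries of list 1 held 324 to 575 CPM of Atf4 and the 6 of list 4 held 844 to 1193, and within list 1 and list 4 the difference was 0.34 and 0.34 (FDR 0.740 and 0.455, edgeR). List 1 held 1 Control-AMI fibroblast library and list 4 held 1 Sham library, so each such value within a list has a lone library assumed to vary like the others. Mural cell markers were 3233 CPM in Control-AMI replicate 4 against 394 to 710 in the other 3, 505 to 1463 in Sham and 691 to 1689 with EMPA. The red cell sum was 41.8 to 59.95 CPM in Sham fibroblasts, 93.7 to 506 in Control-AMI and 51.1 to 141 with EMPA. The part of these cells in the fibroblast values of Atf4, Ppp1r15a and Asns was not tested.

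Ppp1r15a stood at 79.2, 38.7, 25.2 and 26.98 CPM in Sham fibroblasts, at 65.9, 59.7, 95.9 and 133 in Control-AMI, and at 170.2, 75.3, 61.1 and 57.4 in EMPA–Pre-AMI. Sham replicates 2 to 4 were below every infarcted library, and replicate 1 was inside their range. The difference was 1.05 (SE 0.44, FDR 0.205, edgeR) for Control-AMI and 1.09 (SE 0.44, FDR 0.179, edgeR) for EMPA–Pre-AMI against Sham. Without Sham replicate 1 these were 1.55 and 1.59 (FDR 0.0420 and 0.0337, edgeR). Within list 4 they were -0.09 and -0.20, the opposite direction, whereas within list 1 the Control-AMI difference, from the lone replicate 4, was 2.16 (FDR 0.00383, edgeR). Trib3 stood at 9.01, 6.60, 8.67 and 23.6 CPM in Sham, 4.22, 6.01, 8.72 and 1.65 in Control-AMI and 1.56, 7.89, 3.16 and 2.43 in EMPA–Pre-AMI. It was lower on average in both infarcted groups with overlapping ranges, at -1.23 (SE 0.55, FDR 0.230, edgeR) and -1.67 (SE 0.58, FDR 0.107, edgeR).

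Atf5, at 105 to 289.8 CPM in Sham fibroblasts, 132 to 277 in Control-AMI and 112 to 213 in EMPA–Pre-AMI, did not move beyond its spread (0.07, SE 0.29, FDR 0.921 with infarction, edgeR). Ddit3 (-0.07, SE 0.34) and Sesn2 (0.16, SE 0.64) did not either. Asns was below the filter, with 21 summed counts for Sham, 50 for Control-AMI and 31 with EMPA. The Control-AMI to Sham ratio of Asns was 2.25 (95% interval 1.33 to 3.95), and the group sum in Control-AMI took 22 of its counts from replicate 4. Members without overlap numbered 0 with infarction (12.3% of genes), 0 for EMPA against Control-AMI (1.78%) and 0 for EMPA against Sham (11.8%). EMPA against Control-AMI called 0 members and 0% of genes by edgeR, with 0 members and 170 genes at an unadjusted p under 0.05, and DESeq2 called 0 members. EMPA against Sham called 0 members against 5.11% of genes, with 2 members and 2225 genes at an unadjusted edgeR p under 0.05. DESeq2 called 0 members there. The medians of the 3 contrasts were 0.11, -0.13 and 0.25 (all genes -0.03, 0.01 and -0.03).

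Whether an effect differed between populations was tested as an interaction over all 38 libraries, and 0 of 8 members passed in any of 6 tests. For Control-AMI against Sham, 1.51% of genes differed between cardiomyocytes and ECs, 0.331% between cardiomyocytes and fibroblasts and 3.22% between ECs and fibroblasts. For EMPA–Pre-AMI against Control-AMI these were 0.993%, 0.00827% and 2.04%. The member nearest the threshold was Chac1, whose infarction effect was larger in cardiomyocytes than in ECs by 3.03 (SE 0.86, FDR 0.0660, edgeR). Next was Atf5, whose infarction effect was larger in ECs than in fibroblasts by 1.70 (SE 0.55, FDR 0.0908, edgeR). At an unadjusted edgeR p under 0.05 the 6 tests held 2, 0, 2, 1, 1 and 2 members in the order of the percentages above. Among the 12085 genes tested, 1099, 1023, 1544, 1993, 1841 and 978 did so in the same order. DESeq2 called 1 member in the first test and 0 in the other 5.

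**Figure D5:**
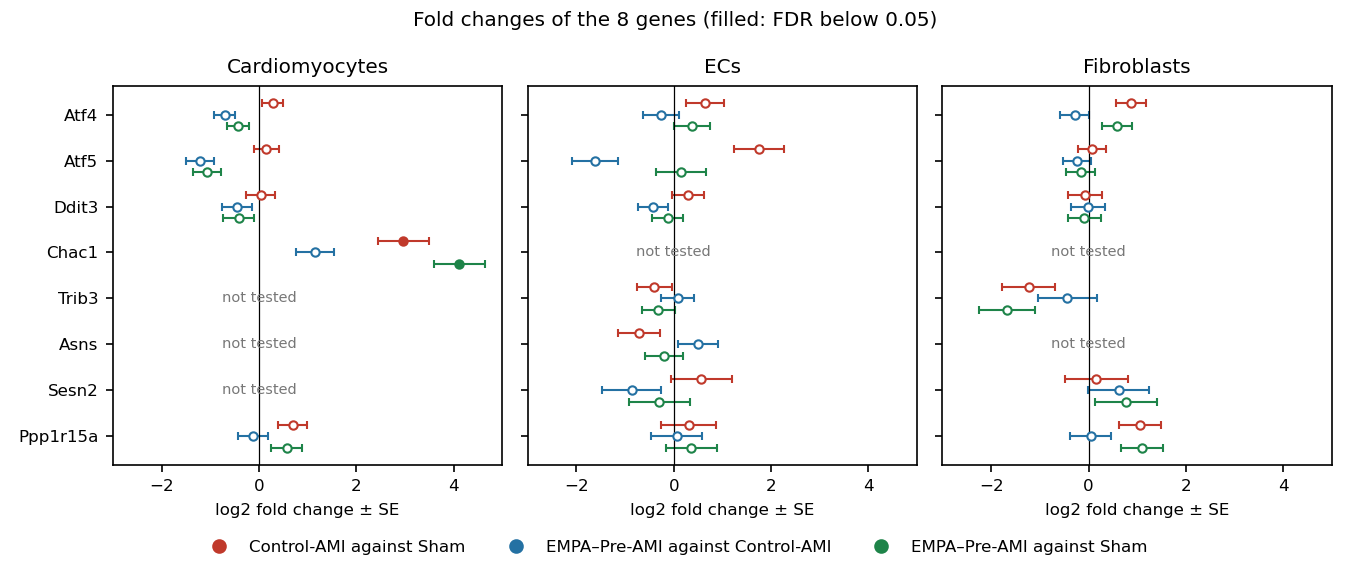
Log2 fold change ± SE of each member in the 9 contrasts within populations (filled, FDR below 0.05). Chac1 in cardiomyocytes carries the only filled points.

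The other genes of the pathway were read from 60 listed genes, of which 45 were tested in cardiomyocytes, 47 in ECs and 54 in fibroblasts. Ddit4, which encodes an mTORC1 inhibitor, was the 1 listed gene called in each cardiomyocyte contrast. The shares of all genes called were 0.0655% with infarction, 0.0218% for EMPA against Control-AMI and 0.338% for EMPA against Sham. In the contrasts with EMPA, EMPA and list can largely not be told apart. In ECs infarction raised 6 of 47 and lowered 0, when 427 of 10438 genes rose and 258 fell (6.56% in all). These were Cebpb and Nupr1 among the transcription factors (3.01 and 2.28, SE 0.58 and 0.54), the amino acid transporter genes Slc1a5 and Slc6a9 (0.91 and 2.39), Ddit4, and Eif2s2, the gene of the eIF2 beta subunit (0.57, SE 0.17, FDR 0.0446, edgeR). The median over the 47 was 0.21 (all genes -0.02). The fibroblast markers given above differ between the same EC groups, and their part in these results was not tested. Lists differed too, since list 4 held EC libraries of Control-AMI only, and values with a list term are not given for these genes. Slc1a5 was also the 1 listed gene called with EMPA against Control-AMI in ECs, where it fell by 1.06 on the log2 scale (SE 0.23, FDR 0.0107, edgeR) when 36 genes rose and 238 fell. In EMPA–Pre-AMI against Sham, 2 of 47 rose, Cebpb and Ddit4, and 0 fell, against 217 and 66 of all genes.

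In fibroblasts infarction raised 6 of 54 listed genes and lowered 1, against 320 and 125 of 10691 genes (4.16% in all). Those raised were Cebpb (2.20), Ddit4 (1.82), the arginine transporter gene Slc7a1 (1.10, SE 0.19), the translation inhibitor gene Eif4ebp1 (1.10, SE 0.26), Eprs1, the glutamyl-prolyl-tRNA synthetase gene (1.01, SE 0.17), and Eif2s2 (0.82, SE 0.20). Bbc3, the gene of the death factor PUMA, fell by 1.36 on the log2 scale (SE 0.35, FDR 0.0401, edgeR). Of the fibroblast libraries, 3 of 4 Sham were on list 1 and 3 of 4 Control-AMI on list 4. Infarction and list can thus partly not be told apart. Values with a list term are not given for these genes, nor for Hspa5 and Trib1 below. The infarction effects of Slc7a1 and Eprs1 were smaller in cardiomyocytes than in fibroblasts by interaction (-1.21 and -1.08, FDR 0.0416 and 0.0425, edgeR). With EMPA against Sham 5 of 54 rose and 0 fell, against 390 and 156 of all genes, and against Control-AMI 0 of all genes were called. The median with infarction was 0.22 (all genes -0.03).

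By role, 1 of 16 genes of eIF2, eIF2B and their kinases rose with infarction in ECs and in fibroblasts (Eif2s2 in both) and 0 in cardiomyocytes. Of the amino acid synthesis and one-carbon enzymes, 10 were listed, 3, 2 and 8 were tested in cardiomyocytes, ECs and fibroblasts, and 0 were called in any contrast within a population. Between Sham ECs and fibroblasts 7 of 8 of these enzymes were lower in ECs, led by Phgdh and Pycr1, of serine and proline synthesis, the opposite direction to Asns, when 2437 of 12085 genes were lower in ECs (37.7% differed either way). Of 13 aminoacyl-tRNA synthetase and exportin genes only Eprs1 was called in a contrast within a population. Among 17 ER chaperone and ER stress genes, Hspa5, the gene of the chaperone BiP, rose with infarction in ECs (0.88, SE 0.18, FDR 0.00484, edgeR) and in fibroblasts (1.04, SE 0.24, FDR 0.0212, edgeR), Calr rose in ECs (0.56), and Herpud1 rose in EMPA–Pre-AMI cardiomyocytes against Sham (0.99). None of 6 mitochondrial chaperone and protease genes was called in a contrast within a population.

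Some relatives of the members passed the threshold where the member did not or was below the filter. Trib1, related to Trib3, was at 52.1 ± 33.8 CPM in Sham fibroblasts, 501 ± 140 with Control-AMI and 432 ± 162 with EMPA (SD, n = 4 each), without overlap between infarcted and Sham libraries. It rose by 3.26 (SE 0.45, FDR 0.00165, edgeR) and 3.05 (SE 0.44, FDR 0.00216, edgeR) against Sham, and its infarction effect was larger in fibroblasts than in cardiomyocytes (interaction -2.63, FDR 0.00165, edgeR) and ECs (-2.56, FDR 0.000872, edgeR). Trib2 fell by 0.79 with infarction in ECs (SE 0.16, FDR 0.00425, edgeR), by 0.65 in EMPA–Pre-AMI ECs against Sham, and by 1.11 in EMPA–Pre-AMI cardiomyocytes against Sham (SE 0.20, FDR 0.00991, edgeR). Sesn1, a relative of Sesn2, rose in EMPA–Pre-AMI against Sham in cardiomyocytes (1.75, SE 0.32, FDR 0.0112, edgeR) and ECs (1.07, SE 0.25, FDR 0.0192, edgeR), and gave 1.40 with infarction in cardiomyocytes (SE 0.31, FDR 0.137, edgeR). Sesn3 and Ppp1r15b, which encodes the constitutive counterpart of GADD34, were not called in any contrast within a population. Chac2, the relative of Chac1, was at 2 to 10 counts in cardiomyocytes and 0 to 8 elsewhere and was not tested.

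The members did not move as 1 group. Over the 13 cardiomyocyte libraries Pearson's r was 0.80 between Atf4 and Atf5 (rho 0.59), 0.54 between Atf4 and Ddit3 and -0.58 between Chac1 and Atf5. In ECs r was 0.76 between Atf4 and Ddit3, 0.63 between Atf4 and Atf5 and -0.76 between Atf4 and Trib3 (n = 13), and in fibroblasts it was 0.62 between Atf4 and Ddit3 and 0.65 between Atf4 and Atf5 (n = 12). Atf4 thus ran with Atf5 and Ddit3 in all 3 populations, over libraries that share groups and lists. After each population's mean was removed, the 3 genes with the highest Pearson r of log2 CPM to each member were found among 12085 genes over the 38 libraries, which share groups and lists. They were Npm1, Hmgn5 and Ncl for Atf4 (0.90, 0.90 and 0.89), Cygb, Gp1bb and Pamr1 for Atf5 (0.88, 0.86 and 0.86), and Ggps1, Pigk and Os9 for Ddit3 (0.74, 0.72 and 0.69). For the targets, they were Tmem140, Zkscan17 and Arhgef11 for Chac1 (0.66, 0.65 and 0.62), Tmem229b, Cavin3 and Klf16 for Trib3 (0.74, 0.72 and 0.70), Cttnbp2nl, Chmp2b and Hnrnpa3 for Asns (0.63, 0.63 and 0.59), and Eif2s3x, Zfp131 and Pcdh7 for Sesn2 (0.60, 0.59 and 0.58). Ppp1r15a was closest to Nfkbiz, Ier5 and Sat1 (0.79, 0.76 and 0.76). No other member was among the closest 3 of any member.

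Several members share ground with other genes on GRCm39. Ddit3 (chromosome 10, 127124268 to 127132163, plus strand) overlaps Mars1 on the opposite strand and Mbd6, Atf5 (chromosome 7, 44461680 to 44466082, minus) overlaps Nup62 and Il4i1, and Ppp1r15a (chromosome 7, 45172340 to 45175692, minus) overlaps Tulp2. Trib3, Asns and Sesn2 overlap transcripts without assigned function, and the values of these genes can include reads of their neighbours, since the strand setting of the counting is not given in the sources used here. Atf4 (chromosome 15, 80139372 to 80141745, plus) and Chac1 (chromosome 2, 119180757 to 119184866, plus) overlap no other annotated gene.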

How the data were processed

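RNA from cardiomyocytes, ECs and fibroblasts was sequenced as QuantSeq 3′ mRNA libraries. The authors trimmed reads with cutadapt 2.8 (quality limit 20), quantified them with Salmon against the mouse transcriptome (GRCm39, Ensembl 106) and analysed them with edgeR in R 4.0.3. They deposited 1 table of estimated counts per gene for all 38 libraries, in which 4.549% of values were not whole. Whether the counting used strand or molecular identifiers is not given in the sources used here.

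The estimated counts were rounded to whole numbers. Symbols were assigned from the reference annotation, leaving 281 of 35682 genes without one. For each population, genes were filtered with filterByExpr (minimum count 10), scaled by TMM and tested with edgeR 4.0.16 (R 4.3.3, limma 3.58.1) by robust quasi-likelihood fits over all 3 groups, with Benjamini-Hochberg adjustment over all genes tested and an FDR threshold of 0.05 (also 0.1 for EMPA against Control-AMI in cardiomyocytes). Population and interaction contrasts used 1 fit over the 38 libraries, taken as independent, with no block for shared hearts. Log2 CPM for the genes closest to each member used a prior count of 2. Correlations among members and with markers used log2(CPM + 1). Fold changes are those of the fit, and the SE was derived as the absolute log2 fold change over the square root of the F statistic. Intervals on summed counts are exact for counting error. The procedure was tested on simulated data. DESeq2 1.42.0, other scalings and filters, leaving out each library, the replicate block and the sample-sheet list were tried as alternatives. Counts of members called by DESeq2 are given without the share over all genes. No 2 libraries held identical values (0 of 703 pairs).

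All members and their relatives are named, with up to 4 called genes of each pathway list by FDR and the 3 genes most correlated with each member. The members and lists were chosen with earlier results of these data known. Promoters were read from GRCm39 with GENCODE vM39.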

Additional observations from a re-analysis of the deposited data

Results flagged for a closer look

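In 9 of 72 groups of 4 or 5 libraries, the highest or lowest library stood apart from the others by Dixon's criterion, which flags about 1 in 20 groups by chance. EC Sham replicate 1, the only Sham EC library on list 3, accounted for 3 of them: Atf4 was 813.5 CPM there against 238.1 to 305.7 in the other Sham ECs, Atf5 was 26.55 CPM against 9.032 to 11.11, and Ddit3 was 82.0 CPM against 35.4 to 38.93. In fibroblasts, Trib3 was 23.57 CPM in Sham replicate 4 against 6.598 to 9.009 in the other Sham libraries, Asns was 9.055 CPM in Control-AMI replicate 4 against 3.45 to 4.129, and Ppp1r15a was 170.2 CPM in EMPA–Pre-AMI replicate 1 against 57.38 to 75.26. Atf5 was low in cardiomyocyte Sham replicate 2, at 17.48 CPM against 25.99 to 27.46. The other 2 rest on 1 count each, for Chac1 in fibroblast Sham replicate 1 (0.3754 CPM) and for Asns in cardiomyocyte EMPA–Pre-AMI replicate 1 (0.5148 CPM), where the rest of the group was at 0.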

How the results depend on the processing

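Of the alternatives to counts of members called, 406 left the count within 1.5 times and 63 moved it. Of those to single values, 604 kept direction and side of the threshold, 35 gained a call, 63 lost one and 19 turned direction. The alternatives within list 1, 2 or 4 alone were chosen after seeing the data. Requiring at least 10 counts in every library, which removes Chac1 from the test, gave 0 members for Control-AMI against Sham, 1 for EMPA against Control-AMI and 0 for EMPA against Sham in cardiomyocytes, and 3, 1 and 2 for the Sham pairs (cardiomyocytes against ECs, cardiomyocytes against fibroblasts, ECs against fibroblasts). DESeq2 gave 2 members for EMPA against Control-AMI and 2 for EMPA against Sham in cardiomyocytes, 1 for Control-AMI against Sham and 1 for EMPA against Control-AMI in ECs, and 1 for the Control-AMI effect between cardiomyocytes and ECs. No filter gave 1 for EMPA against Control-AMI in cardiomyocytes, and no robust estimation gave 1 for Control-AMI against Sham in ECs. Fitting only the groups compared gave 0 for EMPA at FDR 0.1 and 1 for Sham cardiomyocytes against fibroblasts, and averaging over the 3 groups gave 4 for that pair. With a list term the counts were 0 for EMPA at FDR 0.1 and 0 for EMPA against Sham in cardiomyocytes, 1 for Sham cardiomyocytes against ECs, 1 for Sham ECs against fibroblasts and 1 for the Control-AMI effect between ECs and fibroblasts. List 4 alone gave 0 and 0 for the cardiomyocyte EMPA contrasts, and list 1 alone 1 for fibroblast Control-AMI against Sham. The cause was not tested.

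Leaving out 1 library gave 0 to 1 member for Control-AMI against Sham, 0 to 3 for EMPA against Control-AMI at either threshold and 1 to 2 for EMPA against Sham in cardiomyocytes. The ranges were 0 to 2, 0 to 1 and 0 to 1 in ECs and 0 to 2, 0 to 0 and 0 to 2 in fibroblasts. They were 3 to 6, 1 to 2 and 3 to 4 for the Sham pairs, and 0 to 1 for the effects compared between populations. Without EMPA–Pre-AMI replicate 4, all 3 cardiomyocyte members passed 0.05 for EMPA against Control-AMI (Atf5 -1.53, FDR 0.0032, edgeR). That omission leaves no EMPA library on list 4, which holds every Control-AMI cardiomyocyte library. EMPA and list then cannot be told apart, and the share of all genes called in that fit is not given.

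Values that turned direction were Chac1 for EMPA against Control-AMI in cardiomyocytes (-0.68 with a list term, -0.67 in list 4), Ppp1r15a in list 4 of fibroblasts (-0.095 and -0.20 against Sham) and, with a list term, between Sham ECs and fibroblasts (-0.069). Between Sham cardiomyocytes and ECs, Atf4 was -0.031 with at least 10 counts, -0.23 over the 3 groups and -0.16 with a list term, and Chac1 ran from -0.16 to 0.41 over the omissions of 1 library, below 0 in 4 of them. Between Sham cardiomyocytes and fibroblasts, Atf4 ran from -0.45 to 0.10 over the omissions (above 0 without fibroblast Sham replicate 1), and Asns from -1.06 to 0.38, with 0.45 under a list term. None of the turned values passed the threshold.

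The labels do not say whether replicate numbers pair the libraries. Deviations of libraries with the same number correlated above 0.1 in 12 of 36 pairs (-0.113 to 0.484), which does not settle it. With the replicate block, 0 members were called for Control-AMI against Sham in cardiomyocytes (Chac1 2.87, FDR 0.0585, edgeR), 0 for EMPA at FDR 0.1, and 1 for Control-AMI against Sham in fibroblasts (Atf4 0.88, FDR 0.0199, edgeR). Members at a few counts are limited by depth.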
